A study of Mus musculus with 4 samples.

Results

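The genes described are *Srebf2*, *Insig1*, *Hmgcs1*, *Idi1*, *Fdps*, *Sqle* and *Lss*, 7 of the 21938 protein-coding genes of GENCODE vM21 on chromosomes 1 to 19, X and Y. They were chosen by name as genes of cholesterol synthesis and its control, and no uptake receptor is among them. Every peak that touched the gene or the 10 kb on either side of its transcription start site (TSS) was taken from the 4 peak lists. ATACseq, which marks DNA open to the Tn5 transposase, and ChIPseq for the histone variant H2A.Z were each done on the liver of 1 WT mouse (Uhrf1 fl/fl) and of 1 Uhrf1hepKO mouse (Uhrf1 fl/fl with Alb:Cre). Both mice were males on the C57Bl/6 strain, 8 to 12 weeks old and on normal diet, and the same 2 livers served both assays. *Uhrf1* encodes a protein that maintains DNA methylation, and Alb:Cre is active in cells of the hepatocyte lineage, while whole liver also holds cells in which it is not active. Whole tissue was assayed, and a site that is open in fewer cells cannot be told apart from one that is less open in each cell. With 1 library per condition the difference between the livers cannot be told apart from the difference between 2 mice, and no p-value is given.

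The liver makes cholesterol from acetyl-CoA through the mevalonate pathway. SREBP2, the product of *Srebf2*, is held in the endoplasmic reticulum by INSIG proteins when sterols are plentiful and is released to the nucleus when they are scarce, where it binds sterol regulatory elements in the promoters of the enzymes of the pathway, together with NF-Y at CCAAT boxes and SP1 at GC boxes. *Hmgcs1* makes HMG-CoA, *Idi1* and *Fdps* make the isoprenoid intermediates, and *Sqle* and *Lss* turn squalene into lanosterol, the first sterol. H2A.Z is a variant of histone H2A that is common in the nucleosomes beside active or poised start sites.

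Sequence under the WT ATACseq peaks is shown for genes whose peak reaches upstream of the TSS, with bases of the gene itself left out. *Fdps* and *Sqle* have no entry in the RefSeq promoter table, and the peak of *Idi1* lies over exons, so none is shown for them. The stretches are chr15:82146891-82147171 at *Srebf2*, chr5:28071063-28071362 at *Insig1*, chr13:119690051-119690350 at *Hmgcs1* and chr10:76531424-76531564 at *Lss*, read 5′ to 3′ on the plus strand of GRCm38.p6, which is the strand of these genes. Capitals mark the CCAAT box, here always read as ATTGG, and the letters TCACCCCA of a sterol regulatory element, with the C that follows them at *Hmgcs1*.
Srebf2: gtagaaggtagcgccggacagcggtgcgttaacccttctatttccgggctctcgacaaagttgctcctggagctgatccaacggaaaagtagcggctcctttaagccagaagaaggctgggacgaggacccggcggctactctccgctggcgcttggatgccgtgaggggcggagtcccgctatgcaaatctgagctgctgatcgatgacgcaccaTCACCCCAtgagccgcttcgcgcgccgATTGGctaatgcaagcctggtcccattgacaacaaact
Insig1: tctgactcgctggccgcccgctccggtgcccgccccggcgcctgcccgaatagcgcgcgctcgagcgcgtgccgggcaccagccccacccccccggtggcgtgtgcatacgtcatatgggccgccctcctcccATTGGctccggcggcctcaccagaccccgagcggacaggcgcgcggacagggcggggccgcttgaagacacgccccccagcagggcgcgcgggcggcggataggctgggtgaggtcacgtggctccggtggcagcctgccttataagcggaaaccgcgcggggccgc
Hmgcs1: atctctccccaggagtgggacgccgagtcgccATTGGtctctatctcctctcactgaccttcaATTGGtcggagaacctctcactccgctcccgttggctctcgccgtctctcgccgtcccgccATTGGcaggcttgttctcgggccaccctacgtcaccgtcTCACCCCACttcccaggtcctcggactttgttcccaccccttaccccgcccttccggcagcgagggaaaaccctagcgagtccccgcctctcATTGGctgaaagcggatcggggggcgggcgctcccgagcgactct
Lss: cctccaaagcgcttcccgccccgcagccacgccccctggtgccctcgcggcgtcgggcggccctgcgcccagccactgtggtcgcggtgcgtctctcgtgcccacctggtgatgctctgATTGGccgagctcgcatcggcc

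The 5 members with a RefSeq promoter, from 250 bases before to 50 after the RefSeq start, all held a CCAAT box (CCAAT on either strand) and all held a GC box (GGGCGG on either strand). Of the 20150 RefSeq promoters of protein-coding genes, 37.8% held the first and 47.8% the second. The CCAAT boxes of the members had one orientation, and all 9 matches in their promoters read ATTGG on the strand of the gene. Over all these promoters, 51.0% of the matches read ATTGG, so neither orientation was preferred. Some of the 9 matches shared a promoter. Counted by promoter, all 5 members held ATTGG only, as did 43.7% of the promoters with a CCAAT box. Orientation was not among the planned counts. *Hmgcs1* held a sterol regulatory element (TCACNCCAC on either strand, found in 1.20% of the promoters) from −165 to −157 bp of the GENCODE TSS, between its CCAAT boxes. *Srebf2* held the shortened form TCACCCCA, which overlaps with the longer motif at *Hmgcs1*, from −74 to −67 bp, with the CCAAT box following at −47 bp. The shortened form was added after the sequence had been read and was found in 1.45% of the promoters. The fuller form, TCACCCCAC with an A before it, was in none of the 5 members and in 0.0744% of the promoters, and the E-box CACGTG was in *Insig1* alone and in 8.03%. These are matches of letters, and binding was not measured.

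In 300 bases centred on their WT ATACseq peaks, the same 5 genes had 24 to 36 CpGs, against a median of 25 for all WT ATACseq peaks within 500 bp of a coding TSS. Their GC content ran from 60.3% at *Srebf2* to 70.7% at *Insig1*, against a median of 64.0%. The CpG number of *Srebf2*, *Hmgcs1* and *Idi1* was within 1 of that median, and *Insig1* had the most. A CCAAT box was in 46.8% and a GC box in 69.2% of those windows over all such peaks, and both were in all 5 of the members. The E-box CACGTG was in the window of *Lss* alone among the 5, and in 12.5% over all such peaks. *Hmgcs1* had 4 CCAAT boxes in its window, *Idi1* had 3, and *Srebf2*, *Insig1* and *Lss* had 1 each, where 21.7% of the windows had more than 1.

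All 7 genes were open at the TSS in the WT liver and 6 of 7 were in the Uhrf1hepKO liver. Among all protein-coding genes an ATACseq peak lay within 500 bp of the TSS in 25.3% (WT) and 22.9% (Uhrf1hepKO). Both livers had an ATACseq peak there at 6 of the 7 members and at 19.3% of protein-coding genes. H2A.Z was found within 500 bp of the TSS at 6 of the 7 in each liver, against 43.2% (WT) and 41.9% (Uhrf1hepKO) of protein-coding genes. They were the same 6 genes, and 40.0% of protein-coding genes had H2A.Z there in both livers. No member had H2A.Z there in 1 liver alone, where 7.55% of the protein-coding genes with it in WT lacked it in Uhrf1hepKO and 4.56% of those with it in Uhrf1hepKO lacked it in WT. In the wider window, the gene and 10 kb around its TSS, ATACseq peaks were at 7 and 6 of the members (39.2% and 37.7% of protein-coding genes), and H2A.Z peaks at 6 and 7 (64.3% and 62.4%). The 5 genes *Srebf2*, *Hmgcs1*, *Idi1*, *Fdps* and *Lss* had a peak within 500 bp of the TSS in all 4 lists, as did 17.0% of protein-coding genes. *Sqle* was short of ATACseq in Uhrf1hepKO and *Insig1* of H2A.Z in both livers.

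**Figure D1:**
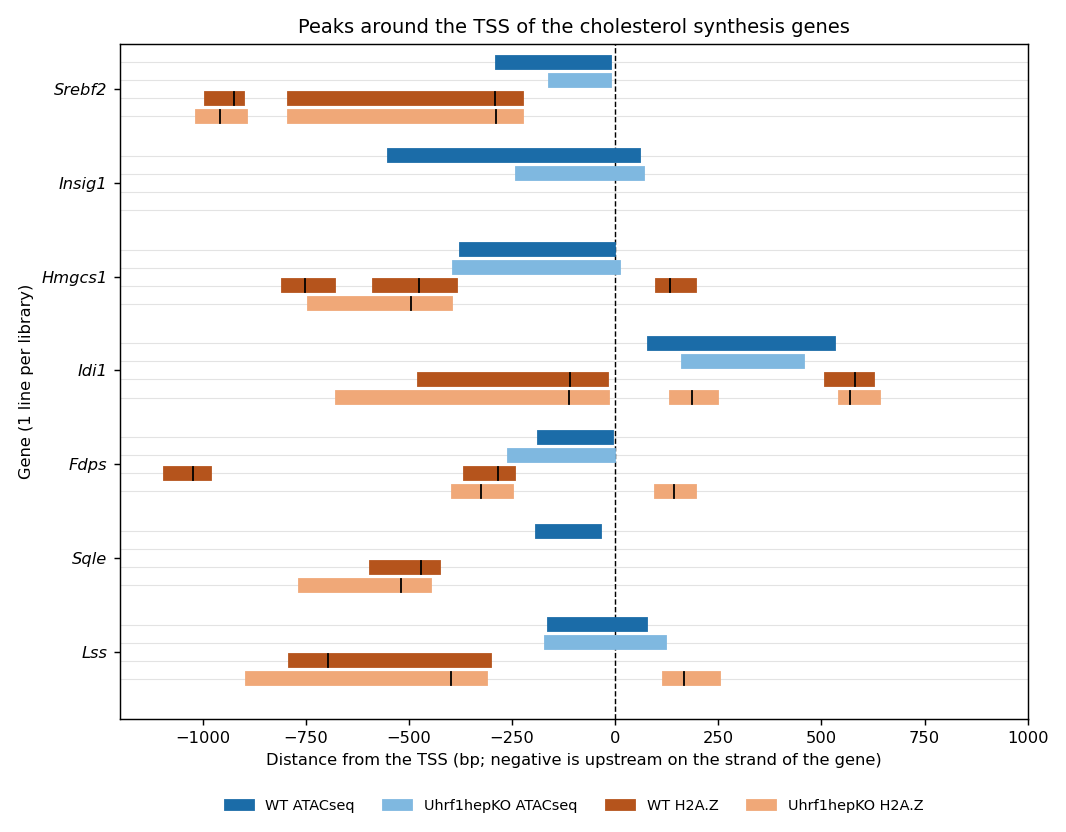
Peaks of the 4 lists around the TSS of the 7 genes, with the distance from the TSS in bp on the x axis and 1 line per library for each gene. Blocks are peaks and black marks are H2A.Z summits. ATACseq peaks lie just upstream of the TSS or span it except at *Idi1*, where they start 79 bp (WT) and 162 bp (Uhrf1hepKO) downstream of it. H2A.Z peaks lie mostly upstream of them.

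The lists held 43 peaks at these genes, 7 and 6 of ATACseq and 14 and 16 of H2A.Z in WT and Uhrf1hepKO. Of these, 35 lay within 1 kb of the TSS and the other 8 were H2A.Z peaks farther upstream. None lay in a gene more than 1 kb downstream of the TSS. The longest of these genes, *Srebf2* and *Lss*, are 58199 bp and 25551 bp long. Among protein-coding genes such a peak was found in 10.5% (WT) and 11.0% (Uhrf1hepKO) for ATACseq and in 25.1% and 23.4% for H2A.Z. For 7 genes these shares correspond to few genes, so the absence does not set the members apart.

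Open chromatin was matched between the livers at 6 genes. All 6 Uhrf1hepKO ATACseq peaks overlapped a WT peak (100%), and 6 of the 7 WT peaks overlapped a Uhrf1hepKO peak (85.7%). For all ATACseq peaks within 500 bp of a coding TSS these shares were 83.4% and 76.0%, and for all peaks of the lists 60.3% and 61.3%. The fold of a peak is the authors' enrichment of reads over the local background, for ATACseq averaged over the peak. For H2A.Z it is the value at the summit. It is not scaled between libraries, so each value is placed by its percentile among all peaks of its own list. Ranked only among the peaks within 500 bp of a coding TSS, each member's ATACseq percentile was lower. It ran from 62.5 at *Sqle* to 94.9 at *Idi1* in WT and from 54.8 at *Fdps* to 94.2 at *Hmgcs1* in Uhrf1hepKO.

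*Srebf2* (ENSMUSG00000022463, chromosome 15, 82147181 to 82205379, plus strand) encodes the SREBP2 precursor. Its WT ATACseq peak ran from −290 to −10 bp with a fold of 5.70, at the 84.9th percentile of the WT list, and its Uhrf1hepKO peak from −160 to −10 bp with a fold of 5.94, at the 90.7th. Both ended at the same base upstream of the first exon, and the Uhrf1hepKO peak was the narrower, at 151 bp against 281 bp. An H2A.Z peak of 572 bp (WT) or 570 bp (Uhrf1hepKO) lay upstream, with its summit at −292 and −290 bp. It overlapped the ATACseq peak by 68 bp in WT and ended 63 bp before it in Uhrf1hepKO. *Srebf2* also had an H2A.Z peak about 3 kb upstream in both livers, with its summit at −2995 bp in WT and −2976 bp in Uhrf1hepKO.

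*Insig1* (ENSMUSG00000045294, chromosome 5, 28071363 to 28078662, plus strand) encodes an anchor that keeps the SREBP precursor in the endoplasmic reticulum. The WT ATACseq peak was the widest of the members, 612 bp from −552 to 59 bp, and also covered the start of the long noncoding RNA gene *Gm26608*, whose TSS is on the other strand. In Uhrf1hepKO the peak was 311 bp, from −241 to 69 bp, and did not reach *Gm26608*. The folds were 5.27 (77.3rd percentile) and 4.92 (76.1st percentile), so both peaks stood at a similar place in their lists. H2A.Z was not called here. The nearest WT H2A.Z peak was 39380 bp upstream, within *Gm26608*, and Uhrf1hepKO had 1 weak peak from −4788 to −4660 bp, with a fold of 4.65 and 19 reads at its summit. Of the protein-coding genes with an ATACseq peak within 500 bp of the TSS, 9.74% in WT and 11.8% in Uhrf1hepKO had no H2A.Z peak within 500 bp, and 3.62% and 5.37% had none in the gene or within 10 kb.

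*Hmgcs1* (ENSMUSG00000093930, chromosome 13, 119690379 to 119708260, plus strand) encodes the cytosolic HMG-CoA synthase. The ATACseq peaks of the livers were nearly the same, 377 bp from −377 to −1 bp in WT and 406 bp from −394 to 11 bp in Uhrf1hepKO. Their folds were 6.09 (89.7th percentile) and 6.77, the highest of the Uhrf1hepKO members (95.5th percentile). H2A.Z lay on both sides in WT, with summits at −752, −476 and 133 bp. In Uhrf1hepKO a single peak from −745 to −395 bp met both upstream WT peaks, its summit was at −495 bp, and none was called downstream. The end of this upstream peak touched the ATACseq peak, with 0 bp between them in Uhrf1hepKO. In WT the nearer upstream H2A.Z peak and the ATACseq peak were 5 bp apart.

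*Idi1* (ENSMUSG00000058258, chromosome 13, 8885501 to 8892451, plus strand) encodes isopentenyl diphosphate isomerase. It had the highest fold of the WT members, 7.04 at the 95.7th percentile, in a peak from 79 to 533 bp downstream of the annotated TSS. The Uhrf1hepKO peak lay inside this range, from 162 to 457 bp, with a fold of 5.75 (88.9th percentile). The start of *Idi1* in RefSeq is itself 105 bp downstream of the GENCODE start used here. *Gm48574*, annotated on the other strand, overlaps both ATACseq peaks. H2A.Z lay on both sides in each liver, upstream with summits at −110 and −112 bp, and downstream at 581 and 570 bp, in intron sequence. Uhrf1hepKO had a further H2A.Z peak between them, with its summit at 186 bp, which overlapped the ATACseq peak by 89 bp. In WT the downstream H2A.Z peak overlapped the ATACseq peak by 26 bp.

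*Fdps* (ENSMUSG00000059743, chromosome 3, 89093588 to 89101959, minus strand) encodes farnesyl diphosphate synthase. The ATACseq peak ran from −188 to −5 bp in WT (fold 5.46, 81.0th percentile) and from −260 to 0 bp in Uhrf1hepKO (fold 4.58, 68.0th percentile). The Uhrf1hepKO value was the lowest fold among the members in that list. An H2A.Z peak lay upstream in both, with summits at −284 and −326 bp. The other H2A.Z peaks were each in 1 liver. WT had one with its summit at −1024 bp, and Uhrf1hepKO had one downstream at 143 bp and 2 far upstream at −5365 and −8291 bp.

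*Sqle* (ENSMUSG00000022351, chromosome 15, 59315077 to 59331192, plus strand) encodes squalene epoxidase, which adds oxygen to squalene. It was the member with a peak in 1 liver for ATACseq. The WT peak, 159 bp from −192 to −34 bp, was the narrowest and lowest of the WT members, with a fold of 5.06 (73.1st percentile). No Uhrf1hepKO ATACseq peak was called in the gene or within 10 kb, and the nearest was 59084 bp downstream, at *Nsmce2* and *Washc5*. A lack of this kind was common, since 23.6% of the protein-coding genes with a WT peak within 500 bp of the TSS had none in Uhrf1hepKO, and 15.7% of those with a Uhrf1hepKO peak had none in WT. The 5th percentile of the fold among Uhrf1hepKO peaks at coding TSSs was 3.41, and signal below the level that was called is not in the list. H2A.Z at *Sqle* was in both livers, with summits at −471 bp (WT) and −519 bp (Uhrf1hepKO). Of the peaks about 8 kb upstream, 1 in each liver touched the start of *Zfp572*, a transcribed pseudogene, and WT had another just beyond it that touched no annotated gene.

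*Lss* (ENSMUSG00000033105, chromosome 10, 76531588 to 76557138, plus strand) encodes lanosterol synthase. The ATACseq peaks spanned the TSS, from −164 to 78 bp in WT (fold 5.13, 74.7th percentile) and from −171 to 123 bp in Uhrf1hepKO (fold 4.76, 72.4th percentile). A broad H2A.Z peak lay upstream in both livers, 492 bp in WT and 585 bp in Uhrf1hepKO, but the summit was at −697 bp in WT and at −399 bp in Uhrf1hepKO. Uhrf1hepKO also had an H2A.Z peak downstream, with its summit at 166 bp.

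**Figure D2:**
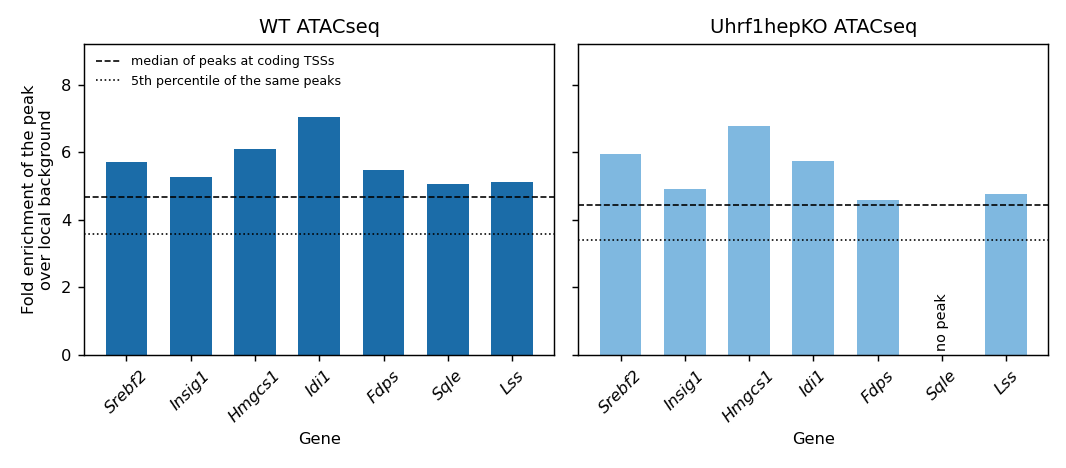
Fold enrichment of the ATACseq peak within 500 bp of the TSS of each gene, on the y axis, for the WT list (left) and the Uhrf1hepKO list (right). Dashed and dotted lines are the median and the 5th percentile of all peaks of that list within 500 bp of a coding TSS. All 7 WT bars and all 6 Uhrf1hepKO bars stand above the median line, and *Sqle* has no peak in Uhrf1hepKO.

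As a group, the members had ATACseq folds from 5.06 to 7.04 in WT and from 4.58 to 6.77 in Uhrf1hepKO. Each was above the median of the peaks within 500 bp of a coding TSS in its list, 4.68 over 4812 peaks in WT and 4.43 over 4367 in Uhrf1hepKO. Width did not set them apart, with a median of 281 bp in WT against 294 bp for those peaks, and 295.5 bp in Uhrf1hepKO against 267 bp.

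H2A.Z summits lay beside the start site. Of the 11 WT H2A.Z peaks within 1 kb of a member's TSS, 9 had the summit upstream and 2 downstream, and of the 11 in Uhrf1hepKO, 7 were upstream and 4 downstream. No summit was closer to the TSS than 110 bp in WT or 112 bp in Uhrf1hepKO. An H2A.Z peak lay within 500 bp of 6 of the 7 WT ATACseq peaks and of 5 of the 6 in Uhrf1hepKO, and overlapped 2 and 3 of them. The sides, summit distances and overlaps were not computed over all protein-coding genes, so they do not set the members apart.

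The strength of H2A.Z can be read in whole reads. For a narrow peak the caller adds 1 to the pileup and to the background before dividing them for the fold, and takes the p-value as the Poisson tail above that pileup, so both together fix the number of reads at the summit. Whole reads were recovered for 100% of the peaks of both lists, to within 0.001 in −log10 p, over a genome background of 3.10 reads in WT and 3.30 in Uhrf1hepKO. The 95% Poisson intervals cover counting error only. For each gene the peak with the highest fold within 1 kb of the TSS was compared.

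*Hmgcs1* had the most reads in WT, 34 (interval 23.5 to 47.5), and 37 (26.1 to 51.0) in Uhrf1hepKO. *Fdps* had 31 (21.1 to 44.0) in WT and 35 (24.4 to 48.7) in Uhrf1hepKO. *Srebf2* had 28 (18.6 to 40.5) in WT and 26 (17.0 to 38.1) in Uhrf1hepKO. These 3 genes differed by a few reads and their intervals overlapped widely. *Idi1* had 28 (18.6 to 40.5) in WT and 41 (29.4 to 55.6) in Uhrf1hepKO, a ratio of 1.46 with an interval of 0.884 to 2.46. *Lss* had 24 (15.4 to 35.7) in each liver. *Sqle* was the lowest, with 18 (10.7 to 28.4) in each. The order of the genes was close in both livers apart from *Idi1*, and neighbours in it did not differ beyond counting error.

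**Figure D3:**
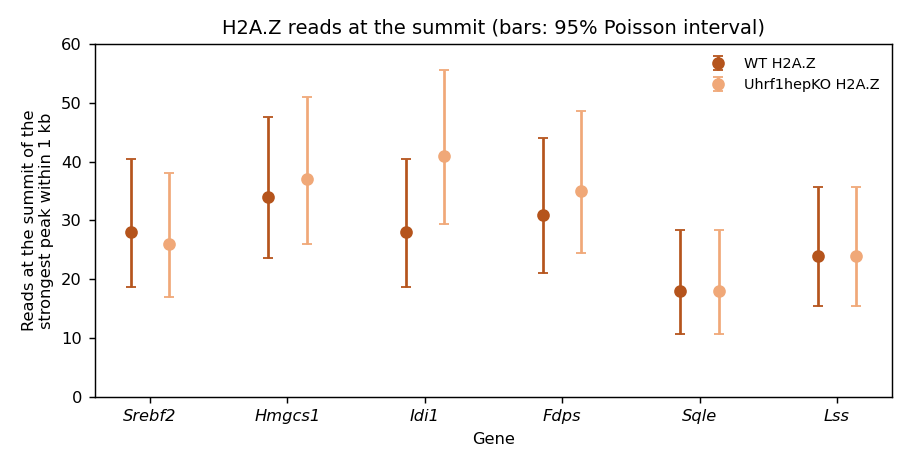
Reads on the y axis at the summit of each gene's strongest H2A.Z peak, within 1 kb of its TSS, in WT (dark) and Uhrf1hepKO (light), for the 6 genes with such a peak in both livers. Points are reads and bars are exact 95% Poisson intervals. The intervals of the livers overlap at each gene, and *Idi1* has the largest gap, 28 against 41 reads.

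Over the 6 genes together there were 163 reads in WT and 181 in Uhrf1hepKO, a ratio of 1.11 (interval 0.894 to 1.38). The 9376 protein-coding genes that carried H2A.Z this close to the TSS in both livers had a median ratio of 1.07, with 0.8 at the 5th and 1.42 at the 95th percentile. The ratio of *Idi1* was just above that 95th percentile, while its interval held the median. Their median number of reads was 30 in WT and 32 in Uhrf1hepKO, and that of the members was 28 and 30.5. The members' values thus lay close to those of other promoters with H2A.Z.

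The positions of the H2A.Z peaks were also compared between the livers. Of the 14 WT H2A.Z peaks, 11 overlapped a Uhrf1hepKO peak (78.6%), and of the 16 Uhrf1hepKO peaks, 10 overlapped a WT peak (62.5%). Among all H2A.Z peaks these shares were 70.0% and 75.6%, and among those within 500 bp of a coding TSS 84.5% and 90.0%. The members' peaks were taken out to 10 kb from the TSS, so neither set is a like one. The summit of the strongest peak moved by 2 bp at *Srebf2* and *Idi1*, 19 bp at *Hmgcs1*, 42 bp at *Fdps*, 48 bp at *Sqle* and 298 bp at *Lss*. The 3 WT and 6 Uhrf1hepKO peaks without a partner had 17 to 29 reads, and the one with the most reads was the one that overlapped the *Idi1* ATACseq peak in Uhrf1hepKO.

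**Figure D4:**
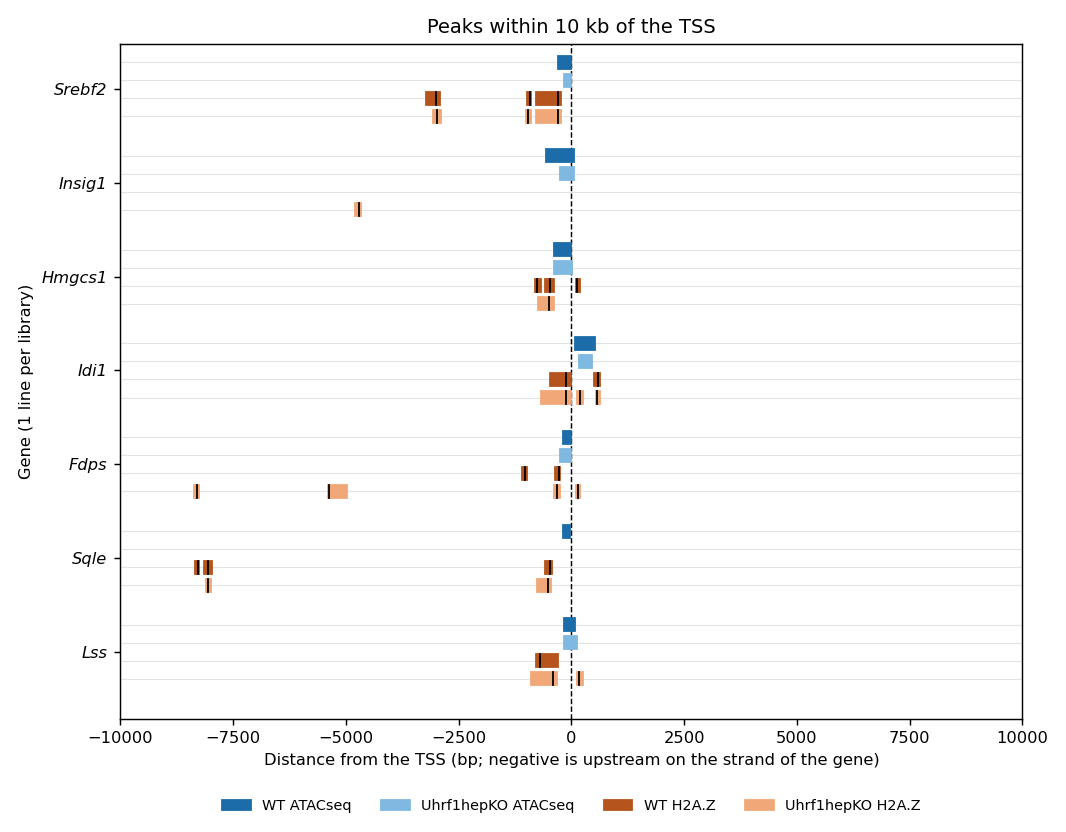
The same peaks over 10 kb on either side of the TSS (x axis, bp), with 1 line per library for each gene. No peak lies more than 1 kb downstream of a TSS, and the far upstream peaks are H2A.Z peaks at *Srebf2*, *Insig1*, *Fdps* and *Sqle*.

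Upstream of *Srebf2*, the H2A.Z peak about 3 kb away was the strongest of the WT peaks at these genes. It had 35 reads (interval 24.4 to 48.7) in WT and 23 (14.6 to 34.5) in Uhrf1hepKO, a ratio of 0.657 with overlapping intervals. The fold was 8.77, at the 91.4th percentile of the WT list, and 5.58, at the 54.3rd percentile of the Uhrf1hepKO list. At −924 bp (WT) and −959 bp (Uhrf1hepKO) a weaker peak had 15 and 20 reads, with overlapping intervals. No ATACseq peak lay at either of these sites.

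The other genes of the pathway, a list of 20 enzymes and SREBP regulators, had a peak within 500 bp of the TSS less often than the members. An ATACseq peak lay within 500 bp of the TSS of 10 of the 20 in WT and 12 in Uhrf1hepKO, and an H2A.Z peak of 11 and 10. A peak in all 4 lists was found at 7 of the 20. The 5 with none in this window were *Pmvk*, *Idi2*, *Fdft1*, *Ebp* and *Insig2*, which are named after their values were seen. *Fdft1*, which encodes squalene synthase, had 1 peak in each list farther off, within 10 kb. *Insig2* had peaks farther off in all 4 lists, and *Pmvk* in all but WT ATACseq. *Idi2* and *Ebp* had none in any list within 10 kb. Peaks were thus not called at the 5′ end of every gene of this list, and other annotated starts were not tried for it. Peaks in the gene more than 1 kb downstream of the TSS, absent from the members, were at 3 (WT) and 4 (Uhrf1hepKO) of the 20 in ATACseq and at 5 in each liver in H2A.Z.

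By the number of peaks within 10 kb of the TSS, the members had medians of 1 ATACseq and 2 H2A.Z peaks in each liver. *Acat2*, which makes acetoacetyl-CoA at the entry of the pathway, and *Cyp51*, which demethylates lanosterol, had exactly these 4 numbers. The ATACseq folds at the TSS were 4.36 (WT) and 4.42 (Uhrf1hepKO) at *Acat2* and 4.92 and 3.77 at *Cyp51*. The folds of the other genes of the pathway with such a peak reached 8.22 in WT and 6.78 in Uhrf1hepKO, where the highest of the members were 7.04 and 6.77.

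**Figure D5:**
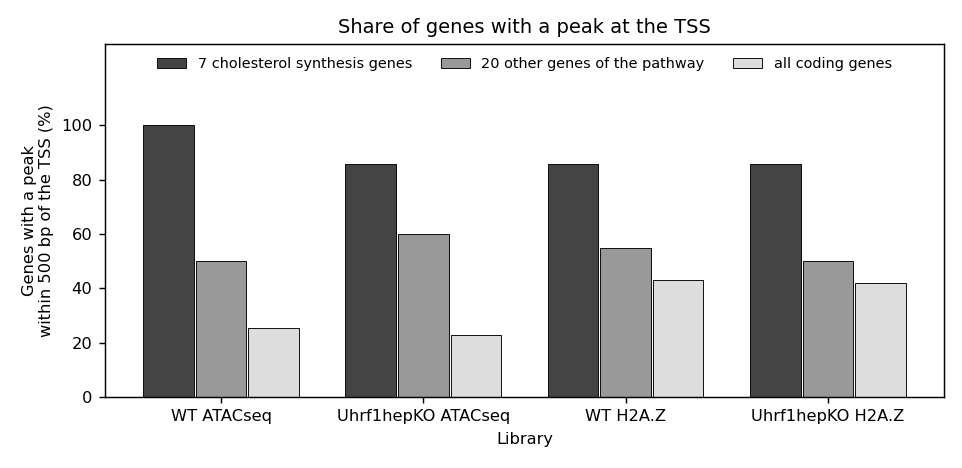
Share of genes with a peak within 500 bp of the TSS (y axis, percent) in each of the 4 lists, for the 7 members, the 20 other genes of the pathway and all protein-coding genes. The members stand highest in each list and all protein-coding genes lowest, with 25.3%, 22.9%, 43.2% and 41.9% from left to right.

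Peaks of these lists did not mark each gene a liver uses. Within 5 kb of the TSS, of the 5 hepatocyte markers *Alb*, *Apoa1*, *Ttr*, *Fga* and *Cps1*, *Ttr* had a WT H2A.Z peak and *Alb* and *Fga* had Uhrf1hepKO ATACseq peaks, while *Apoa1* and *Cps1* had none. Markers of Kupffer cells and liver endothelium had none, 1 of 4 cholangiocyte markers (*Sox9*) had H2A.Z peaks in both livers and an ATACseq peak in WT, and 1 of 4 stellate cell markers (*Colec11*) had H2A.Z peaks in both. *Uhrf1* had 1 peak within 1 kb of its TSS in each of the 4 lists, and peak lists do not check its deletion. The lists held 10582 (WT) and 10764 (Uhrf1hepKO) ATACseq peaks and 51450 and 47135 H2A.Z peaks on the chromosomes used.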

How the data were processed

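Reads were aligned by the authors to GRCm38.p4 with BWA-MEM and processed with PICARD, with removal of duplicates stated for ChIPseq. Peaks were called per library with MACS2, and the methods give a p-value of 0.05, with broad mode for ATACseq. The mode for H2A.Z, a control library and the MACS2 version are not given in the sources used here. The deposited values are a fold enrichment (a ratio of pileup to local background), the −log10 p- and q-values, a display score made by the authors' caller from the q-value, which was not used, and, for H2A.Z, the summit as another deposited value. Deposited ATACseq peaks of the WT liver reached q-values of up to 0.0997, and H2A.Z peaks up to 0.0500. The methods state no limit on q, so whether the p-value was the limit applied is not known. The peak lists do not give the read depth of the ATACseq libraries. The methods give paired-end input for calling ATACseq peaks and single-end reads for their sequencing, and no shift for the transposase is stated, so the ATACseq edges, widths and folds carry this doubt. H2A.Z reads were recovered from the fold and the p-value.

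Genes came from GENCODE vM21 (GRCm38), the TSS was the 5′ end of the gene, and overlaps needed 1 bp. Sequences and promoters were RefSeq, GRCm38.p6, with 5 of the 7 members matched. The members, lists and motifs were chosen with earlier results of these data known. Genes named are the members, genes at their peaks, the 3 other pathway genes nearest the members in numbers of peaks, of which 1 is not reported here, and genes singled out after their values were seen. No test was run. Alternatives varied the peaks kept, the windows, the overlap and the TSS. On simulated data, 200 of 200 genes with a planted peak among the 21938 were found, and 1000 of 1000 pileups were recovered. Overlaps were computed in Python 3.11.15 with pandas 2.3.3 and numpy 2.4.6, intervals with scipy 1.17.1, and figures with matplotlib 3.10.9.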

Additional observations from a re-analysis of the deposited data

How the results depend on the processing

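Counts of members, peaks, overlaps and motifs and the H2A.Z ratio were recomputed under the alternatives. Of 99 values over 33 results, 95 stayed within 1.5 times the main count, or within the interval of the ratio, and 4 did not. These came from dropping peaks whose fold was under the median of their list, which by construction leaves fewer. It left 8 H2A.Z peaks at the members in WT and 8 in Uhrf1hepKO, and 6 of each overlapped a peak of the other liver. Summing all H2A.Z peaks within 1 kb gave a ratio of 1.13. Members with H2A.Z fell from 6 within 500 bp of the TSS to 4 within 250 bp in each liver, at the edge of the limit of 1.5 times. The share of all protein-coding genes at 250 bp was not computed. Windows of 300 bases centred on the WT ATACseq peak, and the shortened sterol motif, were chosen after seeing the data. Counting every annotated gene in place of protein-coding genes lowered the shares with a peak within 500 bp of the TSS to 12.0% and 10.9% for ATACseq and to 21.1% and 20.4% for H2A.Z in WT and Uhrf1hepKO. No paired analysis was possible because each condition has 1 library. Signal below the calling threshold cannot be seen in peak lists, and the spread between mice is unknown.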
